A study of Homo sapiens with 12 samples.

Results

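The comparison was between 2 clones of the osteosarcoma line SaOS-2 that carried the same transfected gene, CD99. It used the 6 Sa/CD99 columns of the authors' log2 value table, 3 of clone wt22 and 3 of clone wt36, out of 12 columns in all. Columns were taken by their labels and paired by day. Of 851 human miRNAs in the table, 179 were detected on at least 3 of the 6 columns, which means above the lowest value of their column, and these were compared. Of these, 111 were detected on all 6 columns, while 618 of the 851 were detected on none of the 6.

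The study followed SaOS-2 cells with and without CD99 through osteoblast differentiation and profiled their miRNAs on Agilent arrays. Clones wt22 and wt36 came from calcium phosphate transfection of SaOS-2 with CD99 followed by neomycin selection, and each was 1 cell line with 1 array per day. The parental SaOS-2 cells were untransfected and had 2 arrays per day, numbered 1 and 2. All 3 lines were placed in the same osteogenic medium, and total RNA, extracted with TRIzol and labelled with Cy3, was taken at day 0, day 7 and day 14. The sources used here do not say whether the SaOS-2 numbers mark separate cultures, and p-values measure only the spread between these samples, which may be technical. A miRNA array has no probe for CD99, so the level of the transfected gene was not checked here.

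The labels of the arrays conflicted. For each of the 12 table columns a single scanner array showed an identical set of detected miRNAs (847 of 847 names in common), and in all 12 cases it was filed under a different sample. The next best array matched on at most 826 names. Values below follow the column labels of the table. In the study's comparison with SaOS-2, miR-1305 was higher, lower and higher in Sa/CD99 cells at days 0, 7 and 14. MiR-378 was lower there at day 0. By the column labels the same directions were seen. The study's values came from these same arrays, so this does not show that the column labels are right. The study took the clones together, so which clone is which is not settled either. With the scanner arrays taken as filed and scaled by their 75th percentile, limma called 0 of 149 miRNAs between the clones under either rule used below, with 0 at an unadjusted p of 0.05 or less. On the same scale the matched arrays had 18 of 179 at that unadjusted p, with 0 called at the adjusted threshold and 5 at the methods' thresholds. SaOS-2 replicate 2 also stood apart, with 229 miRNAs detected at day 7 against 158 on replicate 1. At day 7 clone wt22 had 177 detected miRNAs and clone wt36 had 173. The summed scanner signal of the matched arrays was 8744, 13572 and 18849 at days 0, 7 and 14 for clone wt22, and 8106, 13718 and 25494 for clone wt36. The number of arrays limits the precision of every value. The matched arrays of a day's clones lay on 1 slide, with wt22 in row 1 and wt36 in row 2, so clone and slide row cannot be told apart. At day 7 the clone arrays lay on slide 2 and the SaOS-2 arrays on slide 1. Cell type and slide therefore cannot be told apart on that day. All arrays of day 0 lay on slide 1 and all arrays of day 14 on slide 2, so days 0 and 14 differ in slide as well.

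A miRNA guides silencing proteins to messenger RNAs through its seed, the short stretch near its 5′ end that pairs with the target, so miRNAs with the same seed share many predicted targets. Several miRNAs are encoded side by side and are cut from 1 long transcript, and others lie within the genes of proteins. Cell lines that are grown from single cells of 1 tumour line can differ in what they express, and a pair of clones of 1 transfection is the usual guard against taking such a difference for an effect of the transfected gene. Osteoblast differentiation is governed by RUNX2 and is tuned by miRNAs of several families, including miR-30.

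Mature sequences of miRNAs on which the results turn are given 5′ to 3′, from RefSeq on GRCh38.p14, matched for 152 of the 179 miRNAs (84.9%). Of the 8 miRNAs called between the clones, 4 were not matched and have no sequence here, namely miR-10b, miR-886-3p, miR-30b and miR-486-5p. Capitals mark the seed, bases 2 to 8. The first set has miR-100 and miR-125b, lower in clone wt22, and their relatives of the same seed, followed by let-7a, which is encoded between miR-100 and miR-125b.
miR-100: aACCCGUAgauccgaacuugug
miR-99a: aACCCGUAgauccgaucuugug
miR-99b: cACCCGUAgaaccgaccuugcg
miR-125b: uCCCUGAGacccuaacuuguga
miR-125a-5p: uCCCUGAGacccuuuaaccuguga
let-7a: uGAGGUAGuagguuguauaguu

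The second set has miRNAs that were higher in clone wt22, with a relative of the same seed where one was detected on all 6 columns.
miR-31: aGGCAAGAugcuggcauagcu
miR-140-3p: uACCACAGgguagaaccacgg
miR-301a: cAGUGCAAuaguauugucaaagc
miR-130b: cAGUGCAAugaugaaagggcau
miR-30c: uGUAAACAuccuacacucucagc
miR-30a: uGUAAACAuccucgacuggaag
miR-320b: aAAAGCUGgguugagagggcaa
miR-320c: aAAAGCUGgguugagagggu
miR-320d: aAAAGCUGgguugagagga

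The third set shows a pair with 1 differing position and miR-34a, which was not called between the clones.
miR-103: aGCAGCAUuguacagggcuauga
miR-107: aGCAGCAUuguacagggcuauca
miR-34a: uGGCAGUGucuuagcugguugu

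MiR-100 is encoded at chr11:122152275-122152296 on the minus strand, within the span of the long non-coding RNA gene MIR100HG. MiR-125b comes from chr11:122099809-122099830 in the same gene and from chr21:16590253-16590274, and the array cannot tell these copies apart. MiR-31 lies at chr9:21512158-21512178 within MIR31HG, miR-140-3p at chr16:69933142-69933162 within WWP2, and miR-301a at chr17:59151149-59151171 within SKA2. Only the spans of these genes were used, and whether each miRNA falls in an exon or an intron was not analysed here.

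The clones differed most clearly in 8 miRNAs. Clone wt22 had less miR-10b and miR-100 than clone wt36, and more miR-31, miR-140-3p, miR-886-3p, miR-30b, miR-486-5p and miR-301a. By the table's labels all 8 kept their direction on the 3 days, with mean log2 differences between -2.14 and 1.35. With the arrays as filed, scaled by their 75th percentile, 7 of the 8 had the opposite sign (miR-886-3p -1.08, miR-140-3p -0.56, miR-30b -0.67, miR-486-5p -0.48, miR-301a -0.056, miR-100 0.12 and miR-10b 0.19), and miR-31 stood at 0.093. They passed limma's test at an adjusted p of 0.05 (Benjamini-Hochberg) among the 111 miRNAs detected on all 6 columns, where 7.21% were called. Over the 179 miRNAs of the full comparison limma called 0 (0%), with 8 at an unadjusted p of 0.05 or less and a smallest adjusted p of 0.553.

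The call changed with the miRNAs fitted together and with other choices of the fit. Over the 111 miRNAs limma's prior carried 40.41 degrees of freedom, which drew each miRNA's spread close to a common value, and over the 179 it carried 1.53. Over the same 111 it carried 3.22 without the pairing by day and 2.78 on the matched arrays at their 75th percentile. It carried 2.45 with the difference of the SaOS-2 arrays subtracted, and 2.99, 3.12 and 2.14 without day 0, day 7 and day 14. Why it differed was not tested. With any 1 of the 3 days left out, 0 of the 111 were called, with smallest adjusted p-values of 0.241, 0.281 and 0.486 without day 0, day 7 and day 14. Residual degrees of freedom fell from 2 to 1 in these fits, and all 8 kept their sign. The differences ranged from 1.12 to 1.31 for miR-886-3p, 0.94 to 1.26 for miR-31 and 1.03 to 1.73 for miR-140-3p. For miR-100 they ranged from -1.02 to -0.86 and for miR-10b from -2.61 to -1.49. Without day 7 they fell to 0.73 for miR-30b, 0.61 for miR-486-5p and 0.55 for miR-301a. Without the pairing by day 0 were called too, and scaling the matched scanner arrays by their 75th percentile left 4 of the 8, namely miR-31, miR-10b, miR-886-3p and miR-140-3p. On that scale differences kept their sign and were smaller, at -1.25 for miR-10b, -0.53 for miR-100, 0.45 for miR-301a, 0.81 for miR-30b and 0.80 for miR-486-5p. With the difference of the SaOS-2 arrays of the same slide rows subtracted, an alternative chosen after the data were seen, miR-886-3p stood at 2.06, miR-30b at 2.25 and miR-301a at 1.44.

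MiR-10b, encoded in the HOXD gene cluster and known for its part in breast cancer metastasis, showed the largest difference of the 111. It was 3.37, 1.09 and -0.71 at days 0, 7 and 14 in clone wt22, and 4.55, 2.88 and 2.73 in clone wt36. Clone wt22 was the lower on each day, although its day 0 value lay above the later values of clone wt36. SaOS-2 replicate 1 had 3.78, 2.77 and 1.47, and replicate 2 had 3.86, 2.88 and 3.32. Both stood above clone wt22 on every day, whereas clone wt36 lay above both at day 0 only. The difference of wt22 from wt36 was -2.14 (SE 0.28, 3 days, limma adjusted p = 2.89e-07 over the 111). Adjusted p-values over its 19 alternatives ran from 1.23e-08 to 0.998. The gap was widest at day 14 in the table but at day 0 on the matched arrays at their 75th percentile, where it was -1.52, -0.95 and -1.27 on the 3 days. The SaOS-2 pair differed in the same direction as the clones (-0.68), and with that subtracted the clone difference was -1.45 (adjusted p = 0.294 over the 111).

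MiR-100, a regulator of the mTOR pathway, and miR-125b, a miRNA that targets p53 and blocks osteoblast differentiation in mesenchymal cells, are encoded in the same host gene. MiR-100 was 5.34, 3.83 and 2.88 in clone wt22 and 6.05, 4.85 and 3.90 in clone wt36. The daily differences were -0.71, -1.02 and -1.02 in the table and -0.48, -0.80 and -0.31 on the matched arrays at their 75th percentile, and the SaOS-2 values lay between the clones on every day. The mean difference was -0.92 (SE 0.25, adjusted p = 0.00874 over the 111, range over alternatives 0.00874 to 0.998). MiR-125b was 6.75, 5.37 and 3.65 in clone wt22 and 7.42, 5.86 and 4.63 in clone wt36. It was the lower in clone wt22 on each day, with a mean difference of -0.71 (SE 0.25), but missed the threshold with an adjusted p of 0.0663 over the 111 (range over alternatives 0.0624 to 0.998). With the SaOS-2 difference subtracted it stood at -1.36.

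The 2 miRNAs flank let-7a within 52.5 kb, and let-7a did not share their direction. It measured 10.09, 9.83 and 8.55 in clone wt22 and 10.09, 9.61 and 8.69 in clone wt36, a mean difference of 0.03. Let-7a is a differentiation-linked miRNA with further copies on other chromosomes, which the array reads together. The relatives miR-99b and miR-125a-5p, encoded together with let-7e on chromosome 19, differed by -0.12 and -0.20, neither called. MiR-99a, which differs from miR-100 at 1 position, was at its column minimum in wt22 at day 0 and in wt36 at day 7. Signal on such a near-identical pair may cross between probes, which was not tested. Of the 5 members of the miR-99, miR-100 and miR-125 group, all kept, 4 were detected on all 6 columns with a median difference of -0.46, against 0.04 over the 111 miRNAs, and 1 of the 4 was called, beside 7.21% of the 111. The group's median stayed below 0 under the centred values (-0.51), the matched arrays at their 75th percentile (-0.26) and their quantile-normalized values (-0.44). With the arrays as filed, at their 75th percentile, miR-100 and miR-125b turned to 0.12 and 0.45.

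**Figure D1:**
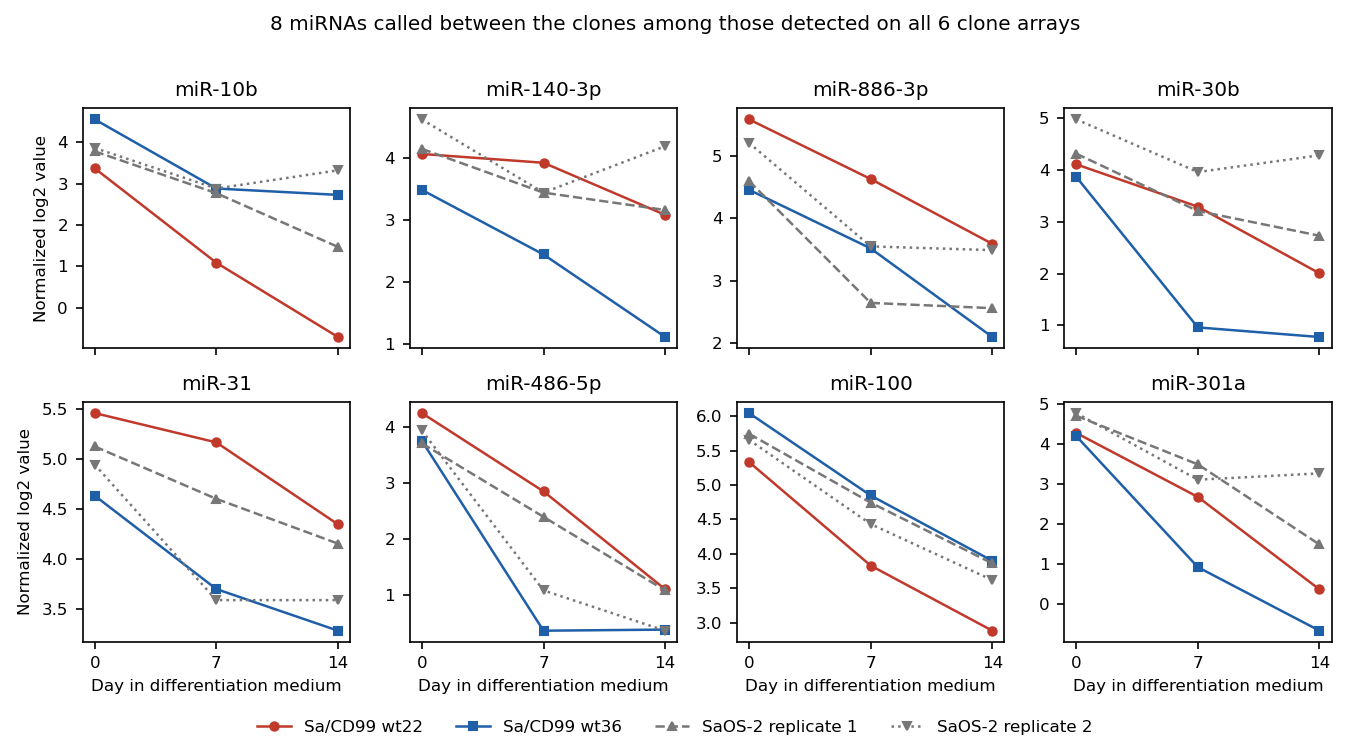
Normalized log2 value of the 8 miRNAs called among the 111 detected on all 6 clone columns, by day in differentiation medium, with 1 point per array. Clone wt22 (circles) lies below clone wt36 (squares) for miR-10b and miR-100 and above it for the other 6 on each of the 3 days, by 0.08 for miR-301a at day 0 and by 2.48 for miR-486-5p at day 7.

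Among the miRNAs that were higher in clone wt22, miR-886-3p had the smallest p over the 179. It is a fragment of the vault-like non-coding RNA nc886 rather than a canonical miRNA. Its values were 5.59, 4.63 and 3.59 in clone wt22 and 4.46, 3.52 and 2.10 in clone wt36, so clone wt22 was above clone wt36 by 1.13, 1.11 and 1.50 on the 3 days. The difference was 1.25 (SE 0.25, adjusted p = 0.000304 over the 111, range over alternatives 0.000304 to 0.998). SaOS-2 replicate 1 had 4.60, 2.64 and 2.56 and replicate 2 had 5.21, 3.55 and 3.49. Clone wt22 exceeded both SaOS-2 arrays on each day, and the SaOS-2 pair itself differed by -0.82, the opposite direction in the same slide rows. With that SaOS-2 difference subtracted, miR-886-3p was the only 1 of the 111 that limma called (adjusted p = 0.0256).

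MiR-31, a miRNA often lost together with the neighbouring CDKN2A locus in tumours and described as a brake on osteogenic differentiation, was 5.46, 5.16 and 4.35 in clone wt22. Clone wt36 had 4.63, 3.70 and 3.29. Clone wt22 was above clone wt36 on every day, by 1.46 at day 7, and the lowest value of wt22 still lay below the highest of wt36. The mean difference was 1.12 (SE 0.25, adjusted p = 0.00115 over the 111, range 0.00115 to 0.998). SaOS-2 replicate 1 had 5.12, 4.60 and 4.15, and replicate 2 had 4.94, 3.59 and 3.59. Here the SaOS-2 pair differed by 0.58 in the same direction as the clones, and with that difference subtracted the clone difference was 0.53 (adjusted p = 0.463 over the 111).

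MiR-140-3p is processed from the WWP2 transcript and is best known from cartilage. It was 4.07, 3.93 and 3.09 in clone wt22 and 3.49, 2.44 and 1.11 in clone wt36. The gap was 0.58, 1.49 and 1.98 on the 3 days, and 0.73, 1.25 and 1.27 on the matched arrays at their 75th percentile, with clone wt36 below both SaOS-2 arrays on every day, while the SaOS-2 arrays had 4.15, 3.45 and 3.16 and 4.63, 3.45 and 4.20. Its difference between the clones was 1.35 (SE 0.26, adjusted p = 0.000304 over the 111, range 0.000304 to 0.998). The other arm of the hairpin, miR-140-5p, was detected in clone wt22 at day 7 (0.45) and day 14 (-0.97) and in clone wt36 at day 14 only (-1.61).

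Means over the 3 days rested heavily on day 7 for miR-30b, miR-486-5p and miR-301a. MiR-30b, of a family that restrains osteoblast differentiation through RUNX2 and SMAD1, was 4.10, 3.29 and 2.0 in clone wt22 and 3.86, 0.96 and 0.78 in clone wt36. Clone wt36 dropped far below clone wt22 and below all SaOS-2 values by day 7, whereas at day 0 the clones were 0.24 apart. The difference was 1.26 (SE 0.28, adjusted p = 0.00115 over the 111, range 0.00115 to 0.998), and 0.73 without day 7. Its relatives of the same seed differed by 0.77 for miR-30c, 0.49 for miR-30d and -0.13 for miR-30a, none of them called after adjustment. With the SaOS-2 difference subtracted miR-30d stood at 0.022. MiR-30c had 3.62, 2.94 and -0.15 in clone wt22 and 3.62, 1.47 and -1.0 in clone wt36, equal at day 0 and higher in wt22 later. MiR-30a and miR-30c are encoded 26.6 kb apart on chromosome 6 and had opposite signs, but miR-30c has a further copy on chromosome 1 that the array reads together with this one. Of 5 miR-30 members on the array 4 were detected on all 6 columns and 1 of these was called, beside 7.21% of the 111. Their median was 0.63, above 0 in every scaling (0.43 to 0.61 in the others).

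MiR-486-5p, a miRNA abundant in red blood cells and muscle, was 4.24, 2.85 and 1.11 in clone wt22 and 3.74, 0.37 and 0.39 in clone wt36. SaOS-2 replicate 1 (3.70, 2.39 and 1.09) and replicate 2 (3.93, 1.09 and 0.37) lay between the clones at day 7, and replicate 2 was next to clone wt36 at day 14. The clones differed by 1.23 (SE 0.28, adjusted p = 0.00134 over the 111, range 0.00134 to 0.998), and by 0.61 without day 7. The SaOS-2 pair differed by 0.60 in the same direction, and with that subtracted the clone difference was 0.63 (adjusted p = 0.637). MiR-301a, encoded within SKA2 and known as an activator of NF-kB signalling, was 4.28, 2.68 and 0.37 in clone wt22 and 4.20, 0.93 and -0.66 in clone wt36. Both clones lay below both SaOS-2 arrays on each day. The clone difference was 0.95 (SE 0.27, adjusted p = 0.0122 over the 111, range 0.0122 to 0.998), and 0.55 without day 7. MiR-130b, of the same seed, differed by 0.05. Of the 5 members of the miR-130, miR-301 and miR-454 family 2 were kept, with a median of 0.50 in the table and 0.24 on the matched arrays at their 75th percentile.

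The thresholds that the study's methods used for miRNAs, an unadjusted p of 0.01 and a 1.4-fold difference, called 3 of the 179 (1.68%), namely miR-886-3p and miR-31, higher in clone wt22, and miR-100, lower. With any 1 day left out this count was 0. Among the 111 the same thresholds called 10 (9.01%), the 8 named above together with miR-30c and miR-125b. Setting undetected values to missing in the 179 gave 10 calls at the adjusted p of 0.05, of which 7 were among the 8, that is 87.5% of the 8 and 70.0% of the 10. The further 3 were miR-34c-5p, miR-34b* and miR-1281, each lower in clone wt22 where both clones were detected. The call of miR-34b* rested on 1 day, day 7, when it was 0.49 in wt22 and 2.56 in wt36, since limma's prior had infinite degrees of freedom in this setting and took the spread from all miRNAs together. MiR-1281 had values of 2.56 and -1.05 at days 7 and 14 in wt22, against 3.02 and 0.99 in wt36. With the arrays as filed, at their 75th percentile, its difference turned to 0.19.

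Other miRNAs differed in 1 direction on each day without passing the adjusted test. Of the miR-320 family, related to miR-320a, whose hairpin is made without Drosha, miR-320d and miR-320b were higher in clone wt22, neither of them called. MiR-320d was 7.99, 6.75 and 6.59 in clone wt22 and 7.56, 6.22 and 5.75 in clone wt36, and miR-320b was 7.34, 6.15 and 5.70 against 6.69, 5.64 and 5.37. Both lay above wt36 on each day, with mean differences of 0.60 and 0.50, whereas the difference of miR-320c had both signs (7.05, 6.91 and 8.09 against 6.35, 7.14 and 7.93). MiR-320c differs from miR-320b at 3 positions and from miR-320d at 2, so their probes may share signal, which was not tested. MiR-103 and miR-107, a pair from the pantothenate kinase genes, differed by -0.37 each, with clone wt22 the lower on every day. MiR-103 had 7.72, 6.85 and 6.41 against 8.09, 7.05 and 6.97, and miR-107 had 7.14, 6.47 and 5.79 against 7.47, 6.69 and 6.35. MiR-22 was 5.05, 4.39 and 3.29 in clone wt22 and 5.70, 4.43 and 4.04 in clone wt36 (-0.48). MiR-21, an oncogenic miRNA of mesenchymal cells, was 8.96, 9.61 and 8.80 in clone wt22 and 8.69, 8.69 and 8.55 in clone wt36 (0.48). MiR-1308, a fragment of a transfer RNA, was 5.21, 8.46 and 10.09 against 5.64, 9.42 and 10.54 (-0.61), and miR-151-5p, miR-1238 and miR-181a-2* differed by 0.38, -0.62 and -0.50. Several of these moved with the processing. With the SaOS-2 difference subtracted miR-320d stood at -0.0032, miR-320b at 0.19, miR-103 at 0.14, miR-107 at -0.11, miR-22 at 0.21, miR-1308 at -0.29, miR-151-5p at 0.12, miR-1238 at -1.76 and miR-21 at 1.62. On the matched arrays at their 75th percentile miR-107 was -0.21, miR-22 was -0.22, miR-1238 was -0.20 and miR-181a-2* was -0.33. With the arrays as filed, at their 75th percentile, the sign turned for miR-320b (-0.038), miR-103 (0.0070), miR-107 (0.11), miR-1238 (0.22) and miR-181a-2* (0.10).

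Most miRNAs did not keep 1 direction. Of the 111, 19 were higher and 16 lower in clone wt22 on all 3 days (31.5%), and 4 and 3 of these exceeded 1.4-fold on each day. The day 0 differences correlated with those of day 7 at r = 0.443 and with those of day 14 at r = 0.439, and days 7 and 14 at r = 0.396. These are correlations across 111 miRNAs, which are not independent replicates and which share the arrays of a day. Differences were larger at low level. The median absolute difference of a day, averaged over the 3 days, was 0.41 among the 37 lowest and 0.24 among the 37 highest. Over the 93 with a sequence, the difference correlated with GC content at r = -0.151 and with length at r = 0.092.

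The 5 miRNAs of highest level were miR-15b, miR-923, miR-720, let-7b and let-7a, and 0 of them were called, beside 7.21% of the 111. At such a share counts of 0 in lists of this size, here and for the let-7 and miR-17 groups, say little about their members. In the table miR-923 differed by -0.07, miR-720 by -0.09, let-7b by 0.15 and let-7a by 0.03, and on the matched arrays at their 75th percentile miR-720 differed by -0.18, let-7b by 0.078 and let-7a by 0.16. MiR-15b, a cell cycle regulator, had 10.54, 10.09 and 8.69 in clone wt22 and 10.54, 10.54 and 9.42 in clone wt36 (-0.40). On the matched arrays at their 75th percentile the mean was 0.029, with daily differences of 0.22, -0.0029 and -0.13, so its direction depended on the scaling. MiR-16, of the same family, differed by 0.27 in the table. It is encoded 0.2 kb from miR-15b and again on chromosome 13, and the array reads both copies together. Of these 2, of 7 on the array, the median was -0.06 in the table and 0.18 on the matched arrays at their 75th percentile. All 9 let-7 members were detected on all 6 columns, with differences from -0.36 for let-7i to 0.34 for miR-98 and a median of 0.10, and 0 were called. The 8 members of the miR-17 cluster and its paralogs, drivers of proliferation, that were detected on all 6 columns had a median of 0.05 in the table and of -0.0007 in the centred values, and 0 were called.

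Groups tied to bone and to mesenchymal identity are given by their counts, beside the 7.21% called over the 111. Of 11 miRNAs known to target RUNX2, the master regulator of osteoblasts, 3 were kept and 2 were detected on all 6 columns, miR-30c (0.77) and miR-23a (0.12), with 0 called. The third, miR-34c-5p, was undetected at day 0 in both clones and was 0.78 and -1.0 at days 7 and 14 in clone wt22 against 1.39 and 1.39 in clone wt36. It was lower in wt22 on both days and was called only with undetected values set to missing. Of 10 mesenchymal miRNAs 8 were kept, 7 were detected on all 6 columns and 1 of the 7 was called, miR-140-3p. Their summed scanner signal was 599, 1250 and 1110 in clone wt22 and 522, 821 and 1290 in clone wt36, with miR-21 the most abundant. The 5 members of the miR-23, miR-27 and miR-24 group had a median of 0.05, the trio of miR-21, miR-221 and miR-222 of 0.21, the miR-26 pair of 0.33, and the miR-191 and miR-425 hairpins of -0.38 with 3 of 4 arms kept, each with 0 called and the same sign in every scaling. The X-linked cluster of miR-188, miR-532 and miR-500 had 5 of 13 kept and a median of 0.22 over 2. Of the imprinted DLK1-DIO3 region 4 of 57 were kept, and of the placental cluster on chromosome 19, 2 of 39, with 0 called. MiR-29a was the 1 member of 3 kept in the miR-29 family (0.12). Among fragments of other RNAs 9 of 12 were kept with a median of -0.09, and 1 was called, miR-886-3p. On the matched arrays at their 75th percentile the median was -0.01 for these fragments and 0.09 for the X-linked cluster, and miR-29a stood at 0.26.

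Markers of other cell types were mostly undetected on the 6 clone columns, as were 618 of all 851 miRNAs. Beside that share, counts in lists this short say little about cell types. Of 7 blood miRNAs 6, including miR-142-3p, miR-223 and miR-451, were never detected in the clones, and miR-486-5p alone carried the list, with a summed signal of 8.7, 8.56 and 8.04 in clone wt22 and 5.59, 3.71 and 7.6 in clone wt36. None of 7 epithelial, 8 pluripotent, 2 endothelial and 1 hepatocyte miRNAs was detected on any of the 6 columns. Of 7 muscle miRNAs only miR-133b was detected, in clone wt36 at days 7 and 14, and of 5 neuronal ones only miR-128, in clone wt22 at days 0 and 7. In RNA from whole cultures, fewer cells of a type and less RNA per cell cannot be told apart.

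Of the miRNAs that either clone detected, both detected 85.5% at day 0, 87.2% at day 7 (163 of 187) and 90.2% at day 14 (194 of 215). At day 14 20 miRNAs were seen in clone wt36 alone and 1 in clone wt22 alone. No miRNA was detected on all 3 days of 1 clone and on 0 days of the other. MiR-10a, a relative of miR-10b from the HOXB cluster, and miR-105 were detected on 3 days in clone wt36 and on 1 day in clone wt22. MiR-10a stood at 3.11, -0.12 and -0.65 in clone wt36 and at 0.94 in clone wt22 at day 7. MiR-20b, miR-766 and miR-877* were seen on 2 days in clone wt36 and on 0 days in clone wt22. These values lie near the lower end of the scale, and an undetected miRNA has only an upper bound.

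Some miRNAs that the study's comparison with the parental line brought forward were set between the clones as well. MiR-34a, the p53-induced tumour suppressor, was 3.27, 3.49 and 2.85 in clone wt22 and 3.45, 3.14 and 3.09 in clone wt36. In SaOS-2 it was undetected at day 0 on both arrays and had 1.49 and 0.81 on replicate 1 and -1.06 and 2.79 on replicate 2 at days 7 and 14. Both clones were above both SaOS-2 arrays on every day, and the difference between the clones was -0.02 (SE 0.21, 95% interval -0.65 to 0.60), not called by limma, which does not show that their levels were equal. On the matched arrays at their 75th percentile it was 0.053, and it was above 0 without day 0 (0.058), without day 14 (0.087) and with the arrays as filed (0.32). Of the 6 p53-linked miRNAs 2 were kept, miR-34a and miR-34c-5p, and 0 were called with undetected values at the column minimum, against 1, miR-34c-5p, with them set to missing, where 5.59% of the 179 were called.

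MiR-26b, of a family linked to osteogenic differentiation, did not hold 1 direction. It had 3.29, 2.39 and -0.38 in clone wt22 and 2.61, 0.45 and 0.84 in clone wt36, so clone wt22 was the higher at days 0 and 7 and the lower at day 14 (mean 0.47, not called by limma). The mean was -0.27 without day 7, 1.31 without day 14 and 0.25 on the matched arrays at their 75th percentile. MiR-342-3p, encoded within the EVL gene, had 5.37, 4.35 and 2.77 against 5.29, 3.59 and 3.02 (0.19), with SaOS-2 at 6.15, 5.24 and 4.39 and at 5.86, 4.39 and 4.43. Both clones stood below both SaOS-2 arrays on each day. MiR-378, from the PPARGC1B gene, was undetected at day 0 in both clones and then 3.14 and 3.52 in wt22 and 3.05 and 3.37 in wt36, while SaOS-2 had it on every array. MiR-1305 was 4.35, 4.77 and 6.80 against 4.00, 5.09 and 6.52 (0.10), with both clones above both SaOS-2 arrays at days 0 and 14 and below them at day 7. Day 7 was the day on which the clones and SaOS-2 lay on different slides. With the SaOS-2 difference subtracted miR-342-3p stood at -0.18 and miR-1305 at -0.11, and their signs also turned without day 7 (-0.089) and without day 0 (-0.022), respectively. With the arrays as filed the sign turned for miR-26b (-0.26), miR-378 (-0.42) and miR-1305 (-0.25).

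Whether the clone difference depended on the day was put to limma's F test of the clone by day terms, which called 0 of 179 (0%), with 5 at an unadjusted p of 0.05 or less and a smallest adjusted p of 0.83, and adjusted minima of 0.714 to 1 in the alternatives. This does not show that the differences were the same on each day. The test assumes that a single clone array varies like the SaOS-2 pair of its day. The 5 were miR-125a-3p, miR-30a*, miR-105, miR-139-3p and miR-148b, and each had at least 1 undetected value. MiR-125a-3p, the other arm of the miR-125a-5p hairpin, was 2.64, 5.00 and 6.62 in clone wt22, and in clone wt36 undetected at day 0 and 5.41 and 6.15 later. Among the 111 measured on all 6 columns 0 reached an unadjusted p of 0.05.

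On each day the clones were closer to each other than the 2 SaOS-2 arrays were. Over 176 miRNAs detected on at least 3 of 6 columns of both the clones and SaOS-2, the median absolute difference between the clones was 0.13, 0.46 and 0.26 at days 0, 7 and 14. Between the SaOS-2 arrays it was 0.30, 0.84 and 0.68. The clone value was the smaller on 3 of 3 days, with means of 0.28 (SD 0.17, n = 3) and 0.61 (SD 0.28, n = 3), and both pairs were farthest apart at day 7. The difference of -0.32 gave an exact permutation p of 0.2, two-sided, where 0.1 is the smallest that 3 against 3 allows. Taken as 3 pairs by day, a choice made after the data were seen, it gave an exact permutation p of 0.25, the smallest that 3 pairs allow. At the 75th percentile the difference was -0.35 with the matched arrays and had the opposite sign (0.23) with the arrays as filed, over a smaller set of miRNAs and with the clone value the smaller on 0 days.

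**Figure D2:**
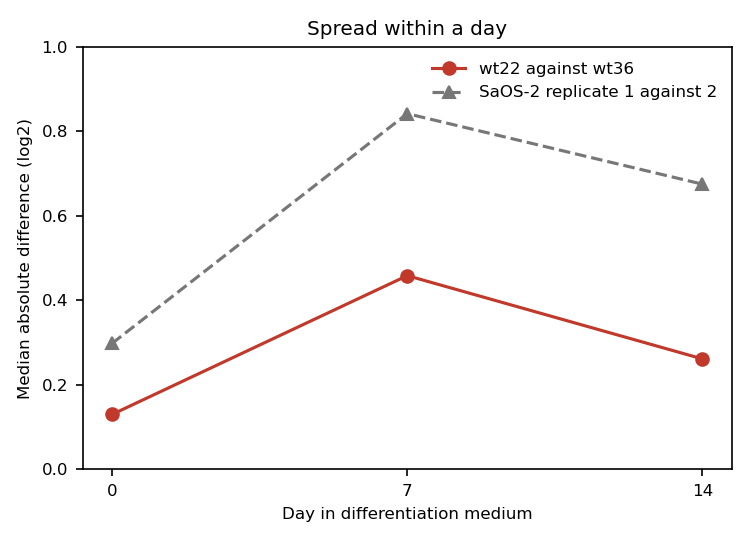
Median absolute log2 difference over 176 miRNAs between clones wt22 and wt36 (circles) and between the 2 SaOS-2 arrays (triangles), by day in differentiation medium. The clone values, 0.13, 0.46 and 0.26, lie below the SaOS-2 values, 0.30, 0.84 and 0.68.

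Single miRNAs showed the same order. Of 100 miRNAs detected on all 12 columns, 14, 46 and 25 differed by more than 1.4-fold between the clones at days 0, 7 and 14, and 38, 69 and 58 between the SaOS-2 arrays. The absolute value of the mean difference over the 3 days was smaller between the clones for 72 of the 100. Daily differences of opposite sign cancel in such a mean. The share with 1 direction on all 3 days was 31.0% for the clones and 55.0% for SaOS-2. The same limma fit on SaOS-2 replicate 1 minus replicate 2 called 1 of 210 (0.476%), miR-130a, where undetected values entered, and 11 at the methods' thresholds (5.24%). Among the 105 detected on all 6 SaOS-2 columns it called 9 (8.57%), led by miR-27a (-2.99) and miR-193b* (2.26), and 16 at the methods' thresholds (15.2%). Of these 9, 0 were among the 8 called between the clones. With 7.21% of the 111 and 8.57% of the 105 called, an overlap of 0 says little.

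**Figure D3:**
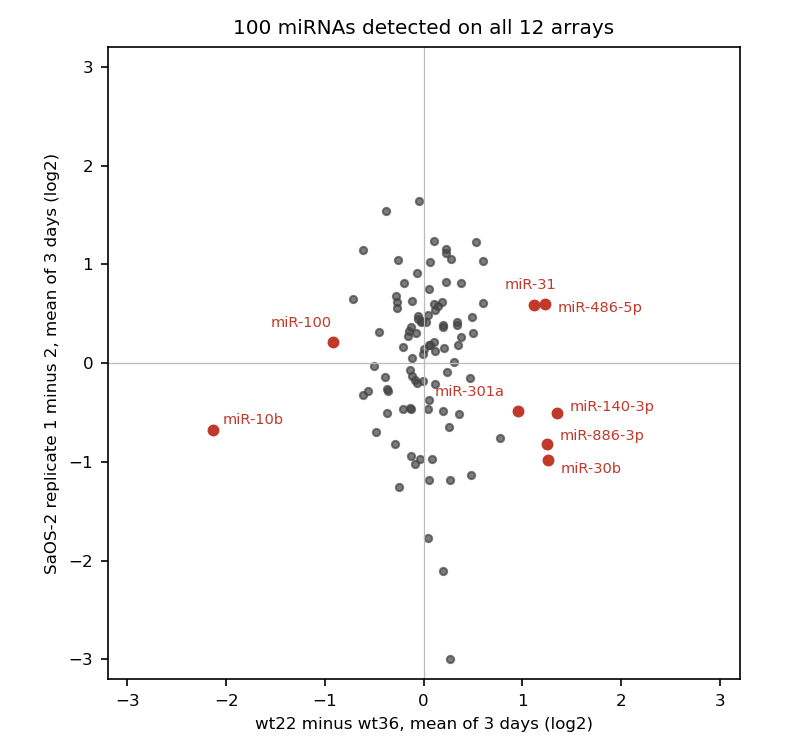
Mean log2 difference over 3 days between the clones (horizontal) and between the SaOS-2 replicates (vertical) for 100 miRNAs detected on all 12 arrays, with the called clone miRNAs in red. Clone and SaOS-2 differences had r = -0.028 across these miRNAs, and miR-31, miR-486-5p and miR-10b lie on the same side in both pairs whereas the other 5 lie on opposite sides.

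Over these 100 miRNAs the clones were 0.25, 0.56 and 0.43 apart in mean absolute difference on the 3 days (r = 0.981, 0.963 and 0.977), and the SaOS-2 arrays 0.49, 0.92 and 0.75. SaOS-2 replicate 1 was near the clones, at 0.27, 0.33 and 0.63 from wt22 and 0.24, 0.59 and 0.53 from wt36. Replicate 2 was farther, at 0.58, 0.91 and 1.10 from wt22 and 0.58, 0.89 and 0.98 from wt36. The nearest array to wt36 at day 0 and to wt22 at day 7 was SaOS-2 replicate 1 of the same day, and wt36 at day 7 was nearest to SaOS-2 replicate 1 of day 14 (0.538, against 0.56 to wt22), so the transfected clones were not always each other's nearest neighbour.

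**Figure D4:**
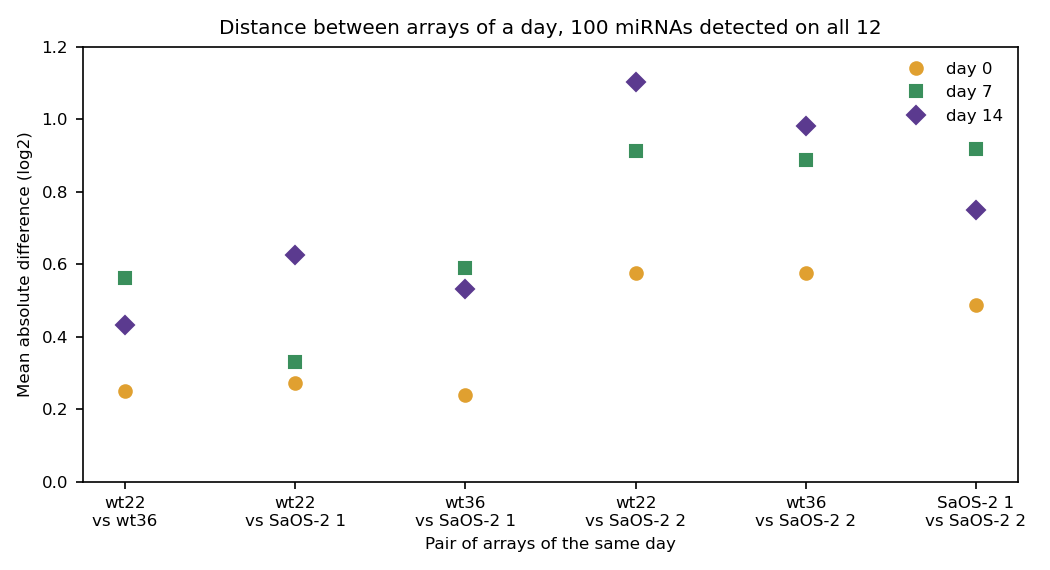
Mean absolute log2 difference over 100 miRNAs detected on all 12 arrays, for each pair of arrays of the same day (1 marker per day). Pairs with SaOS-2 replicate 2 lie between 0.49 and 1.10, and the clone pair between 0.25 and 0.56.

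The miRNAs that separated the clones were also set against SaOS-2. They were chosen for a difference between the clones, so unequal differences from SaOS-2 follow from that choice. The 2 comparisons share the SaOS-2 arrays, and values are given side by side. For wt22 and then wt36, the difference from SaOS-2 was -1.76 and 0.37 for miR-10b, -0.66 and 0.25 for miR-100, -0.47 and 0.24 for miR-125b, 0.93 and -0.32 for miR-886-3p, 0.65 and -0.46 for miR-31 and 0.64 and -0.59 for miR-486-5p. For these 6 the parental mean lay between the clones. MiR-140-3p (-0.14 and -1.49), miR-30b (-0.77 and -2.04), miR-30c (-0.87 and -1.65) and miR-301a (-1.03 and -1.98) were below SaOS-2 in both clones and farther below in wt36.

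Limma called 0 of 179 for either clone against SaOS-2 (0% and 0%), with 15 and 17 at an unadjusted p of 0.05 or less and smallest adjusted p-values of 0.38 and 0.185. On the matched arrays at their 75th percentile clone wt36 had 2 calls, both lower, miR-301a (-1.03) and miR-342-3p (-1.04), each with an adjusted p of 0.0274, and the smallest adjusted p over the alternatives ran from 0.0274 to 0.702 for this clone and from 0.09 to 0.821 for wt22. Without SaOS-2 replicate 1 the counts at the unadjusted p were 37 and 38, and without replicate 2 they were 14 and 15, alternatives chosen after the data were seen.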

How the data were processed

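The log2 values are the deposited table of the authors, who per their methods summarised and normalized Agilent human miRNA arrays in R. The spot intensity files are, per the file headers, output of Feature Extraction 10.7.3.1 (15024 probe spots per array, 0 saturated). Within a column, detected miRNAs kept the order of the matched array's total gene signal in 100% of pairs, with median deviations of 0.027 to 0.040 from its quantile-normalized log2; undetected miRNAs were tied at the column minimum. Column medians of detected miRNAs were 4.97, 3.95 and 3.55 (wt22), 4.92, 4.04 and 3.22 (wt36), 4.89, 4.37 and 3.55 (SaOS-2 replicate 1) and 4.45, 3.02 and 3.32 (replicate 2). No gene centring was seen; the authors' exact settings stay unknown.

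Clones were compared with limma 3.58.1 (lmFit, eBayes) in R 4.3.3 with day as a block and Benjamini-Hochberg adjustment at 0.05. Pairing was by day of harvest. Clone differences of each pair of days correlated above 0.1, which measures how far the difference recurred and not what the arrays of a day share. Tables and figures were made in Python 3.11.15 with numpy 2.4.6, pandas 2.3.3, scipy 1.17.1 and matplotlib 3.10.9. Each fit was tested on simulated data, and the outcome of those tests is not given here. Named were up to 10 miRNAs per direction called at the methods' thresholds with 1 sign on 3 days, filled by smallest p, the 5 of highest level, the 5 of smallest day p, extremes of each list, 5 of the study's miRNAs, and their relatives by seed or hairpin, 35 in all; other miRNAs were named after their values were seen. Members and lists were chosen with earlier results of these data known. Array names were carried to present arm names by hand.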

Additional observations from a re-analysis of the deposited data

Results flagged for a closer look

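MiR-378 on the 6 SaOS-2 arrays had 1 array apart from the others. Replicate 1 at day 7 was 2.81, and the other 5 lay between 3.24 and 3.40, so that its gap to the nearest took a share of 0.733 of the whole range. Chance gives such a gap in about 1 of 20 groups, and 59 were examined. In the clones the same miRNA was undetected at day 0 and was not examined.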

How the results depend on the processing

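The main limits are 1 array per clone and day, 3 days, and low signal: most of the table was undetected, undetected values have no order, and calls changed with how they entered the fit. Clone and slide row cannot be told apart, nor can cell type and slide at day 7. The cause of the moves and reversals listed here was not tested, except where the number of miRNAs or arrays differs by construction. Of the values of 25 named miRNAs under alternatives, 400 kept direction and side of the adjusted threshold, 21 passed it under the alternative alone and 40 changed sign, 18 of them with arrays as filed. Scaling by the 75th percentile over all miRNAs was not run, since that percentile stood at the undetected signal of 0.1 on 10 of 12 arrays. The alternatives with SaOS-2 differences subtracted or SaOS-2 arrays left out, those joining detection on all 6 columns to a further choice, and the pairing of the spreads by day, were chosen after seeing the data.

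Calls at the adjusted threshold between the clones went from 0 of 179 to 8 (detected on all 6 columns, fewer miRNAs) and 10 (undetected set to missing). Among the 111 they were 4 on matched arrays at the 75th percentile, 1 with the SaOS-2 difference subtracted, and 0 to 0 without 1 day. At the methods' thresholds 3 of 179 became 12 (undetected set to missing), 5 (matched arrays, 75th percentile), 0 of 149 (arrays as filed, also at the 75th percentile), 8 (SaOS-2 difference subtracted) and 0 to 0 without 1 day, and among the 111 they were 10, then 11 (75th percentile), 13 (SaOS-2 difference subtracted) and 2 to 2 without 1 day. Without the replicate block, that is without pairing by day, 0 were called at the methods' thresholds in the 179 and 0 in the 111, against 3 and 10 with it. For SaOS-2 replicate 1 minus replicate 2, 1 adjusted call became 9 (detected on all 6), 8 (75th percentile) and 0 to 0 without 1 day, and 11 calls at the methods' thresholds became 16 (all 6), 6 without the replicate block, 19 (75th percentile) and 7 to 10 without 1 day. Clone wt36 against SaOS-2 had 2 calls at the 75th percentile.

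With arrays as filed, at the 75th percentile and over fewer miRNAs, the spread of the clones less that of SaOS-2 was 0.23, and wt22 minus wt36 changed sign to -1.08 for miR-886-3p, -0.56 for miR-140-3p, -0.038 for miR-320b, -0.67 for miR-30b, -0.48 for miR-486-5p, -0.056 for miR-301a, 0.12 for miR-100, 0.19 for miR-10b, 0.45 for miR-125b, 0.19 for miR-1281, 0.22 for miR-1238, 0.10 for miR-181a-2*, 0.0070 for miR-103, 0.11 for miR-107, 0.32 for miR-34a, -0.26 for miR-26b, -0.42 for miR-378 and -0.25 for miR-1305. With the SaOS-2 difference subtracted it was -0.0032 for miR-320d, 0.14 for miR-103, 0.21 for miR-22, -0.18 for miR-342-3p and -0.11 for miR-1305. MiR-34a was 0.053 on matched arrays at the 75th percentile. With 1 day left out, the difference ranged from -0.21 to 0.087 for miR-34a (above 0 at 0.058 without day 0 and at 0.087 without day 14), from -0.27 (without day 7) to 1.31 for miR-26b, from -0.089 (without day 7) to 0.41 for miR-342-3p, and from -0.022 (without day 0) to 0.31 for miR-1305.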
